A study of Mus musculus with 13 samples.

Results

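CD4+ conventional T (Tconv) cells taken from B16-F10 melanomas after regulatory T (Treg) cells had been ablated were compared with the Treg cells of tumors that kept them, gene by gene. The comparison took the 3 CD4 DTx libraries against the 3 Treg PBS libraries, 6 of the 13 libraries of the series, and tested 12667 of 12963 genes, those that reached 10 normalized reads or more in 2 or more of the 13 columns. All mice were Foxp3-EGFP-DTR animals, in which the Foxp3 gene itself drives enhanced green fluorescent protein (EGFP) together with the human receptor for diphtheria toxin. Injected toxin (DTx) therefore kills cells that express Foxp3. B16-F10 is a mouse melanoma line, here grown under the skin. The CD4 DTx cells were EGFP- CD4+ cells of DTx-treated mice, and the Treg PBS cells were EGFP+ CD4+ cells of mice given saline (PBS). Cell type and treatment therefore differed together between the groups, and their parts cannot be told apart in this comparison. Levels in CD4+ Tconv cells of PBS-treated mice (CD4 PBS, 2 libraries) and in CD8+ T cells of PBS-treated (CD8 PBS, 2 libraries) and DTx-treated mice (CD8 DTx, 3 libraries) are given beside them. The labels do not tie libraries to single animals, so p-values measure the spread between libraries, part of which may be technical.

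Treg cells are CD4+ T cells that restrain other immune cells. The transcription factor Foxp3 maintains them, and they act through a high-affinity interleukin-2 receptor, the inhibitory receptor CTLA-4, activation of transforming growth factor beta and the cytokine IL-10. Conventional CD4+ T cells that have met antigen instead make cytokines such as IL-2, IL-4, IL-5 and IL-21, display CD40 ligand, and can acquire granzymes and receptors of the natural killer (NK) type. Both kinds of cell carry the surface proteins of activation when they sit in a tumor, so markers of activation alone do not separate them.

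Recovered reads ranged from 17911242 to 29242251 in the 6 libraries, and 3 reads, taken as the detection floor, came to between 2.54 and 3.95 normalized reads. Foxp3 lay at 1178, 1856 and 1896 normalized reads in the Treg libraries and at 1.87, 0 and 0 in CD4 DTx, at least 416-fold lower (limma, adjusted p = 0.000165). Cd4 and Cd3e were high in all 6 libraries. Cd44, which rises on antigen-experienced T cells, was at 8843, 7030 and 7400 in CD4 DTx and at 6315, 7114 and 9843 in Treg cells, and the groups overlapped. Icos and Batf also overlapped between the groups. CD4 PBS lay lower for Cd44, at 2591 and 1684. Xist and Y-linked transcripts marked replicate 3 of every group as male and the other libraries as female, so the sexes were balanced between the groups.

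A gene was called when its adjusted p in the limma fit was below 0.05 and its fold change above 4-fold. By this rule 508 genes separated the groups, or 4.01% of those tested. In CD4 DTx 198 genes were higher (1.56%) and 310 lower (2.45%). The counts called in each gene list below are to be read beside these shares of all genes tested. When the log2 values were quantile-normalized instead, 257 were higher and 257 lower, which moved the higher share of the calls from 39.0% to 50%. With libraries of the same number treated as a block, 648 genes were called in a fit of all 13 libraries and 265 in a fit of the 6. The block in the 6 libraries ended the calls of 31 named or listed genes, Ifitm1, Itgb8, Klrk1 and Klrd1 among them. The median absolute log2 fold change of the called genes was 4.35, while the median over all genes tested was -0.04. All called genes but Slc39a8, a zinc transporter gene, had groups that did not overlap, against 25.4% of all genes tested. For 34 of the higher genes all Treg libraries lay at or under the floor, and for 97 of the lower genes all CD4 DTx libraries did.

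**Figure D1:**
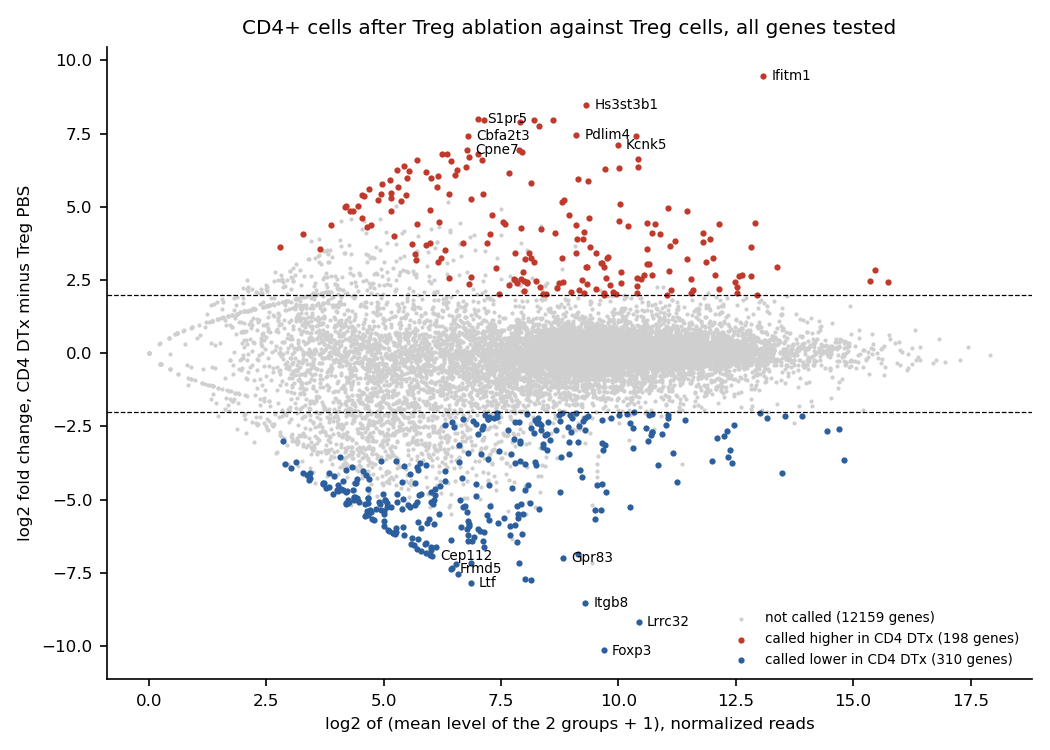
Mean level of the CD4 DTx and Treg PBS groups (x axis, log2 of normalized reads + 1) against the log2 fold change of CD4 DTx minus Treg PBS (y axis) for 12667 genes; red points were called higher and blue points lower in CD4 DTx, dashed lines mark the 4-fold threshold, and some of the genes with the largest differences are named. The 198 red and 310 blue points extend to Ifitm1 at 9.48 and Foxp3 at -10.14.

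Treg identity genes were lower in CD4 DTx for 12 of the 24 listed genes and higher for none, with a list median of -2.02. Beside Foxp3 the lowest were Lrrc32 and Itgb8, which encode the GARP protein that holds latent transforming growth factor beta on the Treg surface and the integrin chain that releases it. Lrrc32 was at 1822, 3254 and 3134 normalized reads in Treg cells and at 0, 40.9 and 1.32 in CD4 DTx (log2 fold change -9.17, SE 1.29, adjusted p = 0.00124). Itgb8 was at 1261, 997 and 1464 in Treg cells and at 0, 36.8 and 0 in CD4 DTx (-8.51, SE 1.58, adjusted p = 0.0063). A single CD4 DTx library, replicate 2, thus held nearly all of the reads of both genes in its group. DESeq2 on the recovered reads did not call Itgb8.

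The Ikaros family factors Ikzf2 (Helios) and Ikzf4 (Eos), which act with Foxp3, were lower but stayed well above the floor. Ikzf2 fell between 476 and 1335 normalized reads in CD4 DTx and between 7511 and 11018 in Treg cells (log2 fold change -3.53, SE 0.39, adjusted p = 0.00031). Ikzf4 was at 175, 193 and 308 in CD4 DTx against 4688, 3786 and 5395 (-4.38, SE 0.31, adjusted p = 1.42e-05). CD4 PBS cells had similar Ikzf4 levels, 220.0 and 388, whereas for Ikzf2 they were at 289.7 and 157.

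Several surface receptors of tumor Treg cells were lower in CD4 DTx yet abundant there. Tnfrsf9, the costimulatory receptor 4-1BB, was at 6536, 2647 and 4338 normalized reads in CD4 DTx against 51911, 46807 and 60509 in Treg cells (log2 fold change -3.64, SE 0.38, adjusted p = 0.000247). Ctla4 was at 6962, 6588 and 4916 against 34182, 39765 and 41133 (-2.65, SE 0.35, adjusted p = 0.000842). The inhibitory receptor gene Klrg1 was at 685, 1262 and 1022 against 12492, 7400 and 9048 (-3.29, SE 0.55, adjusted p = 0.00343). For all of these the CD4 PBS libraries lay lower still, at 118 and 74.0 for Klrg1 and at 764 and 655 for Tnfrsf9. The folate receptor gene Izumo1r, the orphan receptor gene Gpr83, the zinc finger gene Plagl1 and the chemokine receptor gene Ccr8 completed the list of lower genes. The calls of Ccr8 and Gpr83 depended on single libraries. Ccr8 had a log2 fold change of -2.04 and fell to -1.99, short of 4-fold, without CD4 DTx replicate 1 or 3. Gpr83 reached adjusted p-values between 0.0544 and 0.0791 without CD4 DTx replicate 1 or 2 or Treg replicate 2 or 3.

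The other 12 Treg identity genes were not called. Il2ra, the alpha chain of the interleukin-2 receptor, came closest, at 4469, 3158 and 3352 normalized reads in CD4 DTx against 11400, 19950 and 13052 in Treg cells (log2 fold change -1.99, SE 0.47, adjusted p = 0.0221), just short of the 4-fold threshold. Tnfrsf4 (OX40) was also just short of it at -1.95 (SE 0.51, adjusted p = 0.0361). The groups did not overlap for either gene. Neuropilin-1 (Nrp1), often used to mark thymus-derived Treg cells, went the other way, at 5067, 9731 and 7120 in CD4 DTx against 4486, 3928 and 4961, although the difference was not called (adjusted p = 0.236). Entpd1 (CD39), Icos and Socs2 overlapped between the groups.

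**Figure D2:**
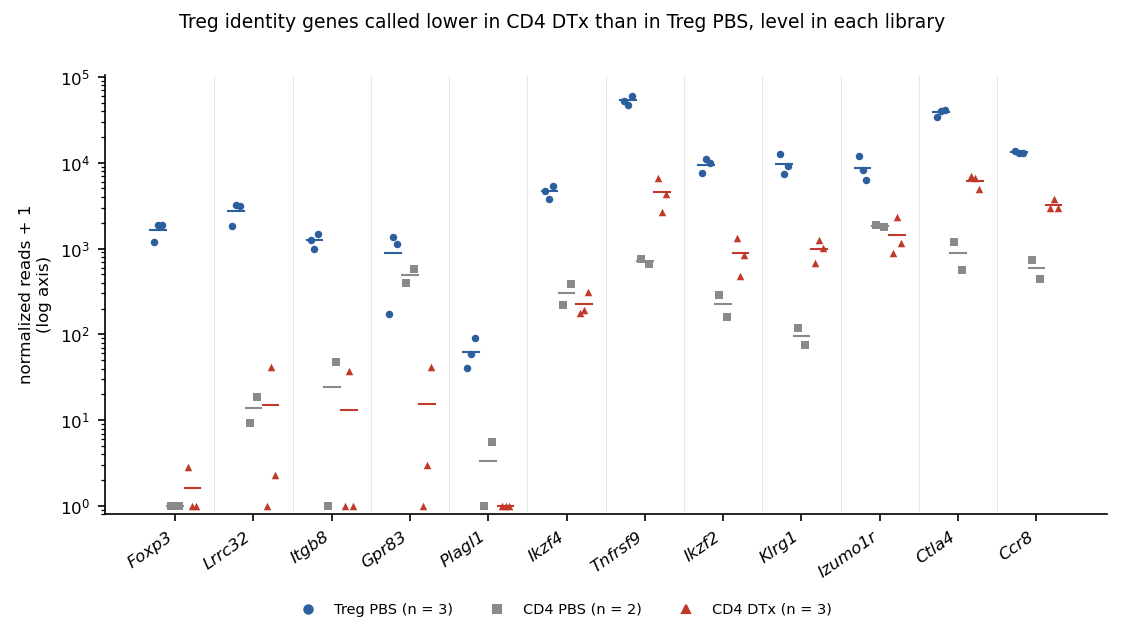
Normalized reads + 1 (log axis) of the 12 Treg identity genes called lower in CD4 DTx, in each Treg PBS, CD4 PBS and CD4 DTx library, with a bar at each group mean. Foxp3 and Plagl1 sit at or near 0 in CD4 DTx, Lrrc32 and Itgb8 do so in all but one library, and Tnfrsf9, Ctla4 and Ccr8 stay well above the floor there and lie below every Treg library.

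Of 18 suppressive mediators 2 were lower and 1 was higher in CD4 DTx. Penk, the precursor of enkephalin peptides, was at 301, 2436 and 2010 normalized reads in CD4 DTx against 8000, 6999 and 9324 in Treg cells (log2 fold change -2.82, SE 0.63, adjusted p = 0.0171). Il10, at 0, 191 and 75.1 against 1081, 783 and 2214, was the weakest call (adjusted p = 0.0499) and was kept in 5 of 21 alternative settings. Leaving out CD4 DTx replicate 1 or 3 or any Treg library gave Il10 an adjusted p between 0.0628 and 0.131, and leaving out CD4 DTx replicate 1 or any Treg library ended the call of Penk, with a log2 fold change between -2.92 and -1.86. Ebi3, a subunit of IL-35, was lower in each CD4 DTx library, at 677, 511 and 590 against 2449, 2282 and 2613, but was not called (adjusted p = 0.0575). Cyp11a1, the enzyme that starts steroid hormone synthesis from cholesterol, was at 218, 456 and 159 in CD4 DTx and at 0 in all 3 Treg and both CD4 PBS libraries, at least 78.6-fold higher than in Treg cells (adjusted p = 0.0293). Without any 1 of the 6 libraries its adjusted p lay between 0.0602 and 0.088. Tgfb1, Lgals1, Lag3 and Entpd1 overlapped between the groups.

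Effector cytokines and tumor necrosis factor (TNF) family ligands were called in the other direction. Of 21 listed genes 9 were higher in CD4 DTx and none was lower, with a list median of 2.52. Il4, the defining cytokine of type 2 helper T cells, was at 256, 718 and 442 normalized reads in CD4 DTx and at 5.08, 0 and 0 in Treg cells (log2 fold change 7.89, SE 0.92, adjusted p = 0.000422). Il5, which sustains eosinophils, was at 738, 791 and 356 against 19.5, 0 and 0 (7.76, SE 1.37, adjusted p = 0.00489). Il21, a cytokine of helper T cells that acts on B cells and CD8+ T cells, was at 1257, 621 and 421 against 0, 20.6 and 0 (7.96, SE 1.16, adjusted p = 0.00151). In each case all CD4 DTx libraries lay above all Treg libraries, although DESeq2 on the recovered reads did not call Il5. Il4 and Il5 were low in the other groups as well, with Il4 at 1.37 and 0.661 in CD4 PBS and at a mean of 23.5 in CD8 DTx. Il21 was at 77.9 and 41.6 in CD4 PBS, above every Treg library. It was called higher in CD4 PBS than in Treg cells (log2 fold change 4.38, limma, adjusted p = 0.032).

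Il2, the T cell growth factor that Foxp3 represses, was at 114, 52.1 and 107 normalized reads in CD4 DTx against 12.7, 11.9 and 2.35 (log2 fold change 3.37, SE 0.88, adjusted p = 0.0365). Csf2, which encodes the myeloid growth factor GM-CSF, was at 223, 197 and 446 against 16.1, 8.67 and 24.7 (4.06, SE 0.95, adjusted p = 0.0221). Both calls depended on single libraries. Without any 1 of the 6 libraries Il2 had an adjusted p between 0.0555 and 0.11, and without CD4 DTx replicate 3 or Treg replicate 1 or 2 Csf2 had one between 0.0621 and 0.0881. Cd40lg, through which helper T cells activate B cells and dendritic cells, was at 8937, 5818 and 5502 in CD4 DTx and at 284, 378 and 524 in Treg cells (4.10, SE 0.36, adjusted p = 0.000109). Here CD4 PBS resembled CD4 DTx, at 3529.9 and 5922. The ligands Fasl, Tnfsf8 (CD30 ligand) and Tnfsf14 (LIGHT) were higher by 3.22 (SE 0.35), 3.85 (SE 0.51) and 2.52 (SE 0.48) on the log2 scale. Interferon gamma (Ifng), the defining cytokine of type 1 helper T cells, was at 2212, 1085 and 1638 against 568, 291 and 977, without overlap but not called (adjusted p = 0.0874). Tnf, Lta and Mif overlapped between the groups.

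The start regions of the cytokine genes are shown because Il2, Il4, Il5, Il21 and Csf2 were higher together. NFAT, the factor that T cell receptor signals activate, binds the core GGAAAA, and matches to it on either strand are in capitals in the 210 bases before the RefSeq start (GRCm38.p6), written 5′ to 3′.
Il2 (chr3:37125955-37126164, - strand): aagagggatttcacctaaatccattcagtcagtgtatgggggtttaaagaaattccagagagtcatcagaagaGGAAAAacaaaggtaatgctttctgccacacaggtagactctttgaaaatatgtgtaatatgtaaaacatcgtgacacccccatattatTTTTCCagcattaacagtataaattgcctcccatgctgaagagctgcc
Il4 (chr11:53618666-53618875, - strand): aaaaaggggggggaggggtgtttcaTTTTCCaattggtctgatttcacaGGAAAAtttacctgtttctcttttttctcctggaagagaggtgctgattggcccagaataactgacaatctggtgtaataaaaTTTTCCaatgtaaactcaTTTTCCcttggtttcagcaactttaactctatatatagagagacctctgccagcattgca
Il21 (chr3:37232637-37232846, - strand): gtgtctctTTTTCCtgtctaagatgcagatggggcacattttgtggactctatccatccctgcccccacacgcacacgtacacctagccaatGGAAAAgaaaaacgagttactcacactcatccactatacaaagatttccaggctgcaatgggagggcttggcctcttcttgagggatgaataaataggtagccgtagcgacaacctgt
Within 250 bases before the start, Il4 held 4 matches and Il2 and Il21 held 2 each, while Il5 and Csf2 held 0. Of 32851 start regions in the table, 20.4% held at least 1. The matches are a description of the letters and were not tested for binding.

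Cytotoxic genes were higher in CD4 DTx for 10 of 24 listed genes and lower for Klrg1 alone, with a list median of 3.14. Gzmk, a granzyme of effector memory T cells, was at 1495, 815 and 1551 normalized reads in CD4 DTx against 33.0, 9.75 and 24.7 in Treg cells (log2 fold change 5.87, SE 0.48, adjusted p = 6.34e-05). Gzma was at 1901, 2982 and 3246 against 32.2, 28.2 and 34.1 (6.35, SE 0.79, adjusted p = 0.00061). The activating receptor gene Klrk1 (NKG2D) was at 4426, 1204 and 2343 against 0.847, 93.2 and 75.3 (6.62, SE 1.17, adjusted p = 0.00496). Klrd1 (CD94) and its partners Klrc1 and Klrc2 (NKG2 receptors) were higher by 6.28 (SE 0.65), 4.07 (SE 0.70) and 5.27 (SE 0.95). Klre1, Gzmm and Crtam were also higher, with group means of 76.1, 77.5 and 103 normalized reads in CD4 DTx. Crtam was not called without any 1 of the CD4 DTx libraries (adjusted p between 0.0596 and 0.0779). The members of the Klr and granzyme families are similar in sequence, and the division of reads between them is uncertain.

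The main killing genes did not follow this pattern. Gzmb was at 13630, 8324 and 10438 normalized reads in CD4 DTx and at 21686, 19202 and 16534 in Treg cells, lower in every CD4 DTx library but not called (adjusted p = 0.419). Nkg7 overlapped between the groups. Prf1, which encodes perforin, was at 360, 546 and 819 against 1361, 947 and 1370.3, lower in every CD4 DTx library but short of 4-fold (-1.15, SE 0.29, adjusted p = 0.0325).

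CD8 transcripts were present in both groups, and Cd8a and Cd8b1 overlapped between them and were not called. Cd8a was at 103, 711 and 1302 normalized reads in CD4 DTx replicates 1, 2 and 3, and Cd8b1 at 267, 1641 and 2359.9, which was 0.437%, 2.68% and 3.86% of its CD8 DTx mean. Gzma in the same libraries came to 3.37%, 5.28% and 5.75% of its CD8 DTx mean. Klre1 came to 5.47%, 3.75% and 4.28%, and Crtam to 5.87%, 3.76% and 5.03%. Gzmm came to 5.49%, 10.8% and 5.4%, and Gzmk to 13%, 7.07% and 13.5%. Klrk1 came to 19.4%, 5.28% and 10.3%. Klrk1, Klrd1, Klrc1 and Klrc2 were thus highest in the library with the least Cd8a and Cd8b1, while Gzma followed the order of Cd8a. The Treg libraries held 922, 752 and 606 normalized reads of Cd8b1. NK cell markers summed to between 6275 and 8501 normalized reads in CD4 DTx and between 631 and 829 in Treg cells, with 3 of 11 called higher. Of these Gzma and Klrk1 are also in the cytotoxic list. The third, the NK receptor gene Ncr1, was at 89.8, 115 and 26.3 against 0, 0 and 1.18 and was not called without any 1 library (adjusted p between 0.0728 and 0.142). Klra4 and Klra8 were at 0 in all CD4 DTx libraries, and Tyrobp and Fcer1g, adaptors that NK cells use, overlapped between the groups. The part of CD8+ T or NK cell RNA in these differences was not tested. In bulk samples fewer cells of a type and less RNA per cell cannot be told apart.

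Most interferon-stimulated genes were not called between the groups, but several Ifitm genes were. The Ifitm proteins are membrane proteins known for blocking virus entry. Ifitm1 was at 29848, 8904 and 13008 normalized reads in CD4 DTx and at 0.847, 78.0 and 64.7 in Treg cells (log2 fold change 9.48, SE 1.43, adjusted p = 0.00195), the largest increase among the genes tested. Ifitm2 was at 21963, 9227 and 12749 against 641, 739.9 and 506 (4.46, SE 0.63, adjusted p = 0.00126). Ifitm3 was at 13631, 6003 and 6126 against 612, 422 and 198 (4.42, SE 0.64, adjusted p = 0.00151). All 3 genes were highest in CD4 DTx replicate 1. They were low in CD4 PBS, with Ifitm1 at 77.9 and 1.98, and high in CD8 DTx, with an Ifitm1 mean of 25644. Reads of these neighbouring and similar genes may be divided imperfectly. Of the 40 listed genes 6 were higher, the others being Ifitm10, Oas3 and Ly6c2, and none was lower, with a list median of 0.36. Ifitm10 was not called without Treg replicate 3 (log2 fold change 1.91). Igtp and Ly6a overlapped between the groups, and Ly6e and Oasl1 were lower in every CD4 DTx library without being called.

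**Figure D3:**
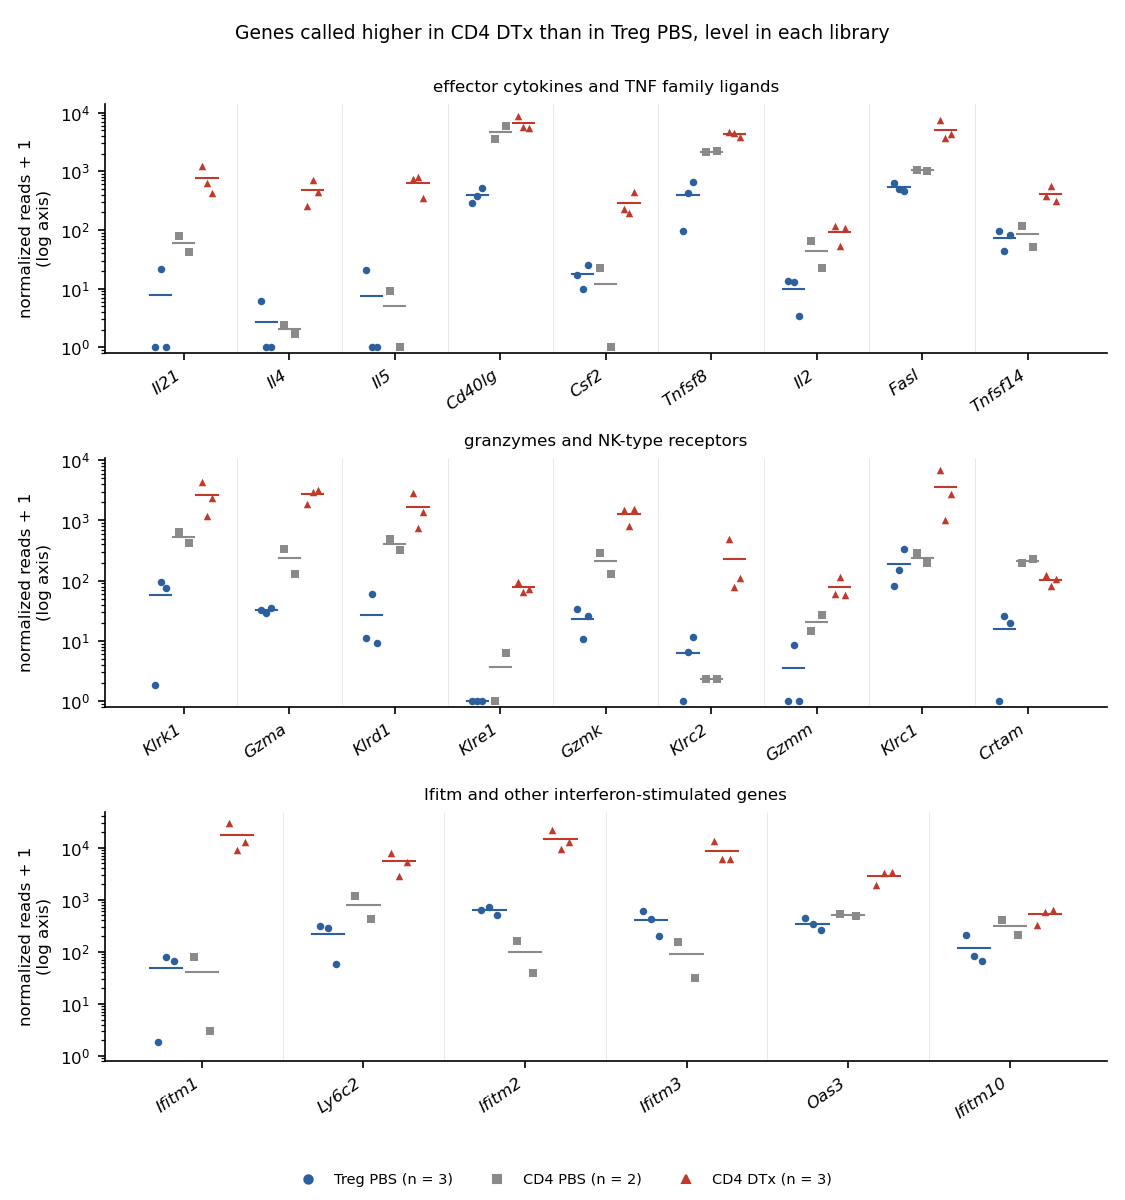
Normalized reads + 1 (log axis) of the genes called higher in CD4 DTx among effector cytokines, granzymes and NK-type receptors, and interferon-stimulated genes, in each Treg PBS, CD4 PBS and CD4 DTx library, with a bar at each group mean. Il4, Il5 and Ifitm1 to Ifitm3 are low in both PBS groups, Cd40lg and Crtam are high in CD4 PBS too, and Klrk1, Klrd1, Klrc1 and Klrc2 are highest in one CD4 DTx library.

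Receptors for migration separated the groups in both directions. Of 24 chemokine and sphingosine phosphate receptors 3 were higher and 3 lower in CD4 DTx, against 1.56% and 2.45% of all genes tested. S1pr5, a receptor that lets lymphocytes leave tissue, was at 231, 311 and 229 normalized reads in CD4 DTx and at 0 in all Treg libraries, at least 72.8-fold higher (adjusted p = 0.000372). S1pr1, which serves exit from lymphoid tissue, was at 20310, 21272 and 16693 against 3397, 5608 and 6404, just short of the fold threshold (log2 fold change 1.96, SE 0.28, adjusted p = 0.00146). Cxcr6, a receptor of tissue-resident T cells, was at 131970, 65866 and 77964 against 21626, 10504 and 18926 (2.43, SE 0.42, adjusted p = 0.00408). Gpr183, a receptor for oxysterols, passed the fold threshold narrowly (log2 fold change 2.003, adjusted p = 0.0016) and fell below the fold threshold without CD4 DTx replicate 1 or 2 or Treg replicate 1 (1.87 to 1.98). The lower genes were Ccr8, Ccr3 and Ccrl2. Ccr3, the eotaxin receptor, was at 14.96, 83.8 and 40.8 against 391, 705 and 586, and its adjusted p without Treg replicate 2 was 0.0506. Ccr2, Cxcr3 and Ccr7 overlapped between the groups.

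Among 17 chemokine ligands, Ccl1, a ligand of CCR8, was higher in CD4 DTx, at 1634, 1340.4 and 1647 normalized reads against 248, 191 and 83.6 in Treg cells (log2 fold change 3.27, SE 0.58, adjusted p = 0.00514). Both CD4 PBS libraries were at 0. Ccl22 was at 0 in all CD4 DTx libraries and at 114, 269 and 28.3 in Treg cells, at least 34.7-fold lower, but was not called without CD4 DTx replicate 1, 2 or 3 or Treg replicate 1 or 2 (adjusted p between 0.0515 and 0.104). The list median was -1.73, and 15 of the 17 ligands were not called.

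Integrins and adhesion receptors were called for 7 of 28 genes, 4 higher and 3 lower in CD4 DTx, against 4.01% of all genes tested. Itgb1, the common beta 1 chain, was at 35848, 115816 and 89471 normalized reads against 9766, 10426 and 9872 (log2 fold change 2.84, SE 0.41, adjusted p = 0.00143). Itga1, which pairs with it as a collagen receptor on tissue-resident T cells, was at 1141, 1061 and 1148 against 126, 131 and 184 (2.94, SE 0.64, adjusted p = 0.0156). Without CD4 DTx replicate 3 or Treg replicate 1 or 2 its adjusted p lay between 0.0509 and 0.0595. Itgax (CD11c) was at 281, 247 and 267 against 0, 19.5 and 0 (6.60, SE 1.01, adjusted p = 0.00203). Itgb3 was higher by 2.19 (SE 0.59) and was not called without CD4 DTx replicate 2 or 3 or any Treg library (adjusted p between 0.062 and 0.141). In the other direction stood Itgb8, Itga3 and the tetraspanin gene Cd81, the last at 636, 946 and 712 against 10477, 8694 and 11533 (-3.75, SE 0.48, adjusted p = 0.000749). Itgae (CD103) and Cd69 overlapped between the groups.

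Of 63 lineage and effector transcription factors, 3 were higher and 6 lower in CD4 DTx, against 1.56% and 2.45% of all genes tested. Satb1, a chromatin organizer that Foxp3 represses, was at 15244, 21530 and 18714 normalized reads in CD4 DTx and at 1141, 2906 and 4146 in Treg cells (log2 fold change 2.93, SE 0.39, adjusted p = 0.000926). Tcf7, which encodes the memory and stemness factor TCF-1, was at 8799, 9575 and 8824 against 395, 3020.2 and 3807 (2.45, SE 0.63, adjusted p = 0.0331). CD4 PBS was higher still in both, at 51745 and 67509 for Tcf7. The Tcf7 call was lost without any 1 of the CD4 DTx libraries or without Treg replicate 1, the lowest Treg library, where the log2 fold change was 1.42. Epas1 (HIF-2 alpha), a sensor of low oxygen, was at 484, 1662 and 1335 against 48.3, 31.4 and 122 (4.14, SE 0.71, adjusted p = 0.00396). The lower genes beside Foxp3, Ikzf2 and Ikzf4 were Irf8, Myb and Sox4, with log2 fold changes of -2.26 (SE 0.35), -2.50 (SE 0.38) and -5.01 (SE 1.01).

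The factors that define helper lineages differed less. Gata3, the type 2 factor, was at 5309.6, 14502 and 10531 normalized reads in CD4 DTx against 2527, 3079 and 4477 in Treg cells, higher in every library by a log2 fold change of 1.51 (SE 0.37, adjusted p = 0.026) but under the 4-fold threshold. Tbx21, the type 1 factor T-bet, was at 3983, 4219.7 and 5764 against 2531, 966 and 1765 (1.495, SE 0.38, adjusted p = 0.0331), also under it. Bcl6, the follicular helper factor, was not called. Tox, which accompanies chronic stimulation, was at 1159, 926 and 893 against 3694, 4176 and 3852 (-1.98, SE 0.23, adjusted p = 0.000373), just short of the threshold. Maf, Prdm1 and Irf4 were lower in every CD4 DTx library but were not called.

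Naive and memory genes were called for 4 of 23, namely Tcf7, Satb1 and Rasgrp2 higher and Sox4 lower in CD4 DTx. Rasgrp2 was at 2999.9, 2828 and 2744 normalized reads against 241, 598 and 619 (log2 fold change 2.67, SE 0.33, adjusted p = 0.000568). The called genes of this list thus lay on both sides.

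Cytokine receptors were called for 3 of 35 genes, all higher in CD4 DTx, against 1.56% of all genes tested. Il18rap, a chain of the IL-18 receptor, was at 14125, 7899.5 and 9363 normalized reads against 1260, 1576 and 2239 (log2 fold change 2.62, SE 0.33, adjusted p = 0.000649). Il12rb2, the signalling chain of the IL-12 receptor, was at 8049, 2646 and 4135 against 995, 1051 and 1138 (2.07, SE 0.49, adjusted p = 0.0234), and its call was lost without CD4 DTx replicate 1 or 3 or any Treg library, with an adjusted p between 0.0545 and 0.0767. Il1rl2 was higher by 4.72 (SE 1.09) and had adjusted p-values of 0.0516 to 0.0691 without CD4 DTx replicate 2 or 3. Il1r2, the decoy receptor for IL-1, was lower in CD4 DTx, at 2580, 2987 and 3807 against 11407, 11852 and 10980 (-1.89, SE 0.35, adjusted p = 0.00605), under the fold threshold. Il2rb, Il2rg and Ifngr1 overlapped between the groups.

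Of 27 costimulatory and coinhibitory receptors, Slamf7 and Lair1 were higher and Ctla4 and Tnfrsf9 lower. Slamf7 was at 4729, 2436 and 2343 normalized reads against 182, 235 and 119 (log2 fold change 4.12, SE 0.37, adjusted p = 0.000121). Lair1, an inhibitory collagen receptor, was at 972, 852 and 1114 against 102, 199 and 34.1 (3.44, SE 0.50, adjusted p = 0.00158). Pdcd1 (PD-1) was at 14652, 9488 and 10031 against 30243, 16352 and 21598 and was not called (adjusted p = 0.216). Tigit, Cd27 and Tnfrsf1b had log2 fold changes of -1.93 (SE 0.53), -1.84 (SE 0.24) and -1.80 (SE 0.29), each with groups that did not overlap and an adjusted p under 0.05, but short of 4-fold.

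**Figure D4:**
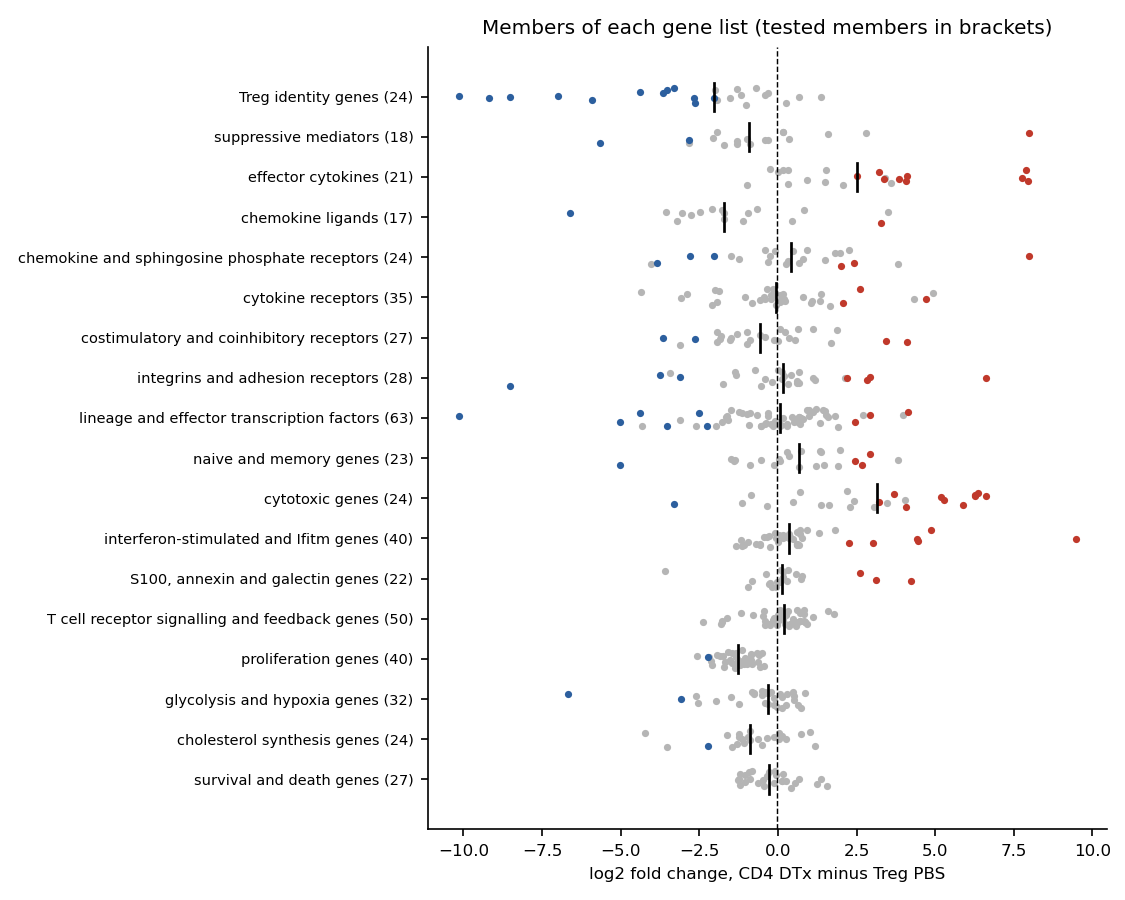
Log2 fold change of CD4 DTx minus Treg PBS (x axis) for the tested members of 18 gene lists; red and blue points were called higher and lower, grey points were not called, black bars are list medians and the dashed line is the median of all genes tested, -0.04. Effector cytokines (median 2.52) and cytotoxic genes (3.14) lie to the right, Treg identity genes (-2.02) to the left, and the 40 proliferation genes all lie below 0 within a narrow range.

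Of 40 proliferation genes 1 was called, lower in CD4 DTx. All 40 had a negative log2 fold change, with a median of -1.28, against 6734 negative values among 12667 genes tested. The groups did not overlap in 33 of the 40, with CD4 DTx lower, against 15.2% of all genes tested, and overlapped in 7. The adjusted p alone was passed by 9, all lower, against 4.55% of all genes. The called gene was Gins2, a subunit of the replicative helicase, which was at 56.1, 156 and 107 normalized reads against 441, 836 and 261 (log2 fold change -2.22, SE 0.56, adjusted p = 0.0318) and was not called without CD4 DTx replicate 1 or 3 or Treg replicate 1 or 2 (adjusted p between 0.0746 and 0.139). Mki67, the common marker of cycling cells, was at 1695, 2652 and 2233 in CD4 DTx against 3253, 8115 and 3685 in Treg cells and was not called (adjusted p = 0.243). The helicase gene Mcm5 was at 1746, 3245 and 3209 against 5172, 7994 and 4663 (-1.14, SE 0.28, adjusted p = 0.0301). Both groups lay well above CD4 PBS, where Mki67 was at 289.7 and 183. Treg replicate 2 was the highest library for Mki67, Top2a, Cdk1, Birc5 and Ccnb1.

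Metabolic, signalling and survival genes were rarely called. Against 2.45% of all genes tested, 2 of 32 glycolysis and hypoxia genes were lower in CD4 DTx. They were Eno2, at 0 in all 3 libraries against 105, 103 and 97.7, and Ldhb, at 258, 162 and 105 against 1639, 1614 and 1006 (log2 fold change -3.07, SE 0.43, adjusted p = 0.00125). The high Ldhb level was shared by CD4 PBS, at 1641 and 1435. Of 24 cholesterol synthesis genes only Idi1 was called, with a log2 fold change of -2.21 (SE 0.40), while 7 passed the adjusted p alone as lower and 13 were lower without overlap, against 4.55% and 15.2% of all genes. None of 50 T cell receptor signalling and feedback genes and none of 27 survival and death genes was called by limma, although 9 and 7 passed the adjusted p alone, against 7.91% of all genes. Of the survival genes 11 were lower in CD4 DTx without overlap and 4 higher, and of the glycolysis and hypoxia genes 10 and 4. For the T cell receptor signalling and feedback genes these counts were 7 lower and 11 higher. Over all 12667 genes tested 1923 were lower without overlap and 1294 higher. Of 22 S100, annexin and galectin genes 3 were higher and none lower. Anxa1 was at 10066, 5129 and 5041 against 739, 804 and 677 (3.11, SE 0.59, adjusted p = 0.00754). Lgals3 (2.62, SE 0.38) and Lgals7 (4.24, SE 0.80) were the others.

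Of 10 genes of major histocompatibility complex (MHC) class II antigen presentation, a group put together after the values were seen, 5 were called lower in CD4 DTx, against 2.45% of all genes tested, and none higher. Cd74, the invariant chain that escorts class II molecules, was at 22176, 23197 and 19226 normalized reads in Treg cells and at 655, 1770 and 1720 in CD4 DTx (log2 fold change -4.09, SE 0.50, adjusted p = 0.000603). H2-Ob, a chain that modulates peptide loading, was at 238, 659.7 and 627 against 0, 10.2 and 0 (-7.69, SE 0.97, adjusted p = 0.000695), and CD4 PBS exceeded Treg cells at 1429 and 1493. H2-Ab1 and H2-Eb1, chains of the class II molecules themselves, were lower in CD4 DTx by -3.23 (SE 0.78) and -3.02 (SE 0.74). H2-Ab1 had adjusted p-values of 0.05 to 0.107 without CD4 DTx replicate 1 or any Treg library, and H2-Eb1 had values of 0.0558 to 0.107 without CD4 DTx replicate 2 or 3 or any Treg library. Ciita, the master regulator of class II genes, was at 264, 211 and 141 in Treg cells and at 0, 28.6 and 0 in CD4 DTx (-6.01, SE 1.43, adjusted p = 0.0235), although it was on no list and was picked after its values were seen. For the called genes other than H2-Ob, both CD4 PBS libraries lay below every Treg library. Cd74 was at 1480 and 901 there, H2-Ab1 at 568 and 187, H2-Eb1 at 201 and 51.5, and Ciita at 0 in both. H2-Aa, H2-DMb1 and H2-Oa lay lower in every CD4 DTx library without being called, and H2-DMa and H2-DMb2 overlapped between the groups.

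The 110 bases before the RefSeq start (GRCm38.p6) of H2-Eb1 and H2-Ob are shown because class II genes share an X box and a Y box through which CIITA acts. Matches on either strand to TAGCAAC, a core of the X box, and GATTGG, the Y box, are in capitals, 5′ to 3′.
H2-Eb1 (chr17:34305757-34305866, + strand): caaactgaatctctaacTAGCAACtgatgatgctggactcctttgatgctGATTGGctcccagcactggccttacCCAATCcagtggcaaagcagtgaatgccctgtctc
H2-Ob (chr17:34238795-34238904, + strand): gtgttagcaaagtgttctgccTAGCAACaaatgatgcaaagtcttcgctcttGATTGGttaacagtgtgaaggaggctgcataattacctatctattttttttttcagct
Both regions held TAGCAAC followed by GATTGG. Of the 32851 start regions of 250 bases, 3.16% held TAGCAAC, 14.6% held GATTGG and 0.496% held both. H2-Eb1 had a second GATTGG match on the other strand. H2-Ob was at 1429 and 1493 normalized reads in CD4 PBS, where Ciita was at 0, and in CD8 PBS their means were 1942 and 15.2. Binding at these boxes and a part of CIITA in the differences were not tested.

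Transcripts of other cell types lay beside the class II result. The 24 myeloid and dendritic cell markers summed to between 26891 and 35968 normalized reads in Treg cells and between 4172 and 7789 in CD4 DTx, but Cd74, H2-Ab1 and H2-Eb1 made up most of the Treg sum, and the 20 other tested markers, Lyz2, Csf1r, C1qa and Cd14 among them, were not called. Of the 23 markers tested, 20 had a negative log2 fold change and 3 a positive one. Their median was -1.91, against -0.04 over all genes tested. Of 8 B cell markers tested 4 were lower in CD4 DTx, against 2.45% of all genes tested. B cell markers summed to between 18542 and 23185 in Treg cells, to 16433 and 16326 in CD4 PBS and to 17375 and 18247 in CD8 PBS. The sums were low in both DTx groups, between 3776 and 6610 in CD4 DTx and between 3298 and 6733 in CD8 DTx. Ighm alone made up most of the sums in CD4 DTx and in Treg cells, at 6307, 4048 and 3268 against 22044, 19194 and 17460. Igkc was at 60.8, 6.13 and 22.4 against 583, 595 and 338, while Ms4a1 overlapped between the groups. Cd79a was not called without any 1 library (adjusted p between 0.0597 and 0.138), Cd79b lost its call without any 1 library other than CD4 DTx replicate 2 (0.0598 to 0.123), and the log2 fold change of Ighm was -1.95, short of 4-fold, without CD4 DTx replicate 3. The 7 melanocyte markers summed to 7267 to 9752 in CD4 DTx and 4917 to 5032 in Treg cells. Yet 6 of them had a negative log2 fold change and 1 a positive one, with a median of -1.18. Tyrp1 and Dct were called lower in CD4 DTx, with Tyrp1 at 0, 5.11 and 18.4 against 328, 369 and 652. Tyrp1 was not called without CD4 DTx replicate 1 or 2 or any Treg library (adjusted p between 0.051 and 0.0691), and Dct not without CD4 DTx replicate 2 or 3 or any Treg library (0.0729 to 0.103). The 7 erythroid markers were all at 0 in CD4 DTx replicates 1 and 3 and summed to 1774 in replicate 2, against 2948 to 5002 in Treg cells. Of 5 stromal and endothelial markers only Sparc was called, lower in CD4 DTx. It was the only 1 with a negative log2 fold change, while 4 had a positive one, and the list median was 0.78. The part of such RNA in the class II result was not tested.

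The remaining genes with the largest differences had various functions. Among the higher genes Hs3st3b1, which adds sulfate to heparan sulfate, was at 918, 1219.8 and 1658 normalized reads in CD4 DTx against 0.847, 20.6 and 0 (log2 fold change 8.49, SE 0.85, adjusted p = 0.000206), and Pdlim4 at 508, 1987 and 761 against 0, 14.1 and 8.24 (7.47, SE 1.44, adjusted p = 0.00789). Both were as high or higher in CD4 PBS, at 1208 and 1079.9 for Hs3st3b1 and at 2207 and 2102 for Pdlim4. Ggt1, an enzyme of glutathione turnover, was at 2591, 3476 and 1796 against 8.47, 15.2 and 20.01 (7.42, SE 0.48, adjusted p = 8.57e-06), with CD4 PBS at 324 and 266. Cbfa2t3, a transcriptional corepressor, was at least 62.2-fold higher and was at 0 in both CD4 PBS libraries. Fam19a3, the potassium channel gene Kcnk5, Cpne7, Esm1 and Prr5l were the others, with log2 fold changes from 6.87 to 7.97 and CD4 PBS levels from 3.96 to 199.5. The group thus held genes that CD4 PBS cells had already and genes that they lacked.

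Among the lower genes Ltf, which encodes the iron-binding protein lactoferrin, was at 229, 188 and 268 normalized reads in Treg cells and at 0 in all CD4 DTx libraries, at least 57.8-fold lower (adjusted p = 0.00126). Cacna1s, a calcium channel subunit of skeletal muscle, was at 245, 232 and 207 against 0, 3.07 and 0, at least 57.7-fold lower (adjusted p = 0.000784). Pcsk1, a protease that processes prohormones such as proenkephalin, was at 453, 330.4 and 888 against 13.1, 0 and 0 (log2 fold change -7.73, SE 1.09, adjusted p = 0.00125). Bicd1, Frmd5, Gsta4, Kctd12b, Cep112 and Pigz were at or under the floor in all CD4 DTx libraries and were at least 31.6-fold to 47.7-fold lower. Tmem158 was at 401, 338 and 640 against 0, 28.6 and 0. CD4 PBS lay at 41.0 normalized reads or less for all of these genes. Kcnk5 was not called in the fit of the 6 libraries alone, nor Tmem158 with edgeR.

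The genes that separated CD4 DTx from Treg cells were also read in CD8+ T cells, where CD8 DTx against CD8 PBS shares no library with the comparison. This measures the difference in CD8+ T cells alone. Both contrasts came from the fit of all 13 libraries and share its estimate of the spread of each gene. Their calls are therefore not independent. CD8 and CD4 libraries with the same replicate number may come from the same mice, which the labels do not state. Of the 198 genes higher in CD4 DTx than in Treg cells, 57 were called higher in CD8 DTx than in CD8 PBS, or 28.8%, against 3.87% of all genes tested, and 5 were called lower, or 2.53% against 1.59%. In either direction 5.46% of all genes were called there. Their median log2 fold change in CD8+ T cells was 1.28, against -0.03 over all genes. The 57 genes made up 11.6% of the 490 genes called higher in CD8 DTx. They included Ifitm1, Ifitm2 and Ifitm3, Gzma, Gzmk, S1pr5, Itga1, Itgax, Anxa1, Lgals3, Epas1, Slamf7 and Il4. Tcf7 was among the 5 lower ones. The higher share among the 198 genes was 22.6% to 29.9% over the fits that left out 1 library.

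For the 310 genes lower in CD4 DTx than in Treg cells the CD8+ T cells gave calls in both directions. Of these 24 were called higher in CD8 DTx (7.74%, against 3.87% of all genes), among them Ctla4, Tnfrsf9, Klrg1 and Ccr8, and 21 were called lower (6.77%, against 1.59%), among them H2-Ob, Pcsk1, Sox4, Ighm and Ldhb. Their median log2 fold change there was 0.02. Without Treg replicate 1 the share called lower was 12.1%. Ctla4, Tnfrsf9, Klrg1 and Ccr8 were thus higher in CD8+ T cells after DTx but lower in CD4 DTx than in Treg cells.

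**Figure D5:**
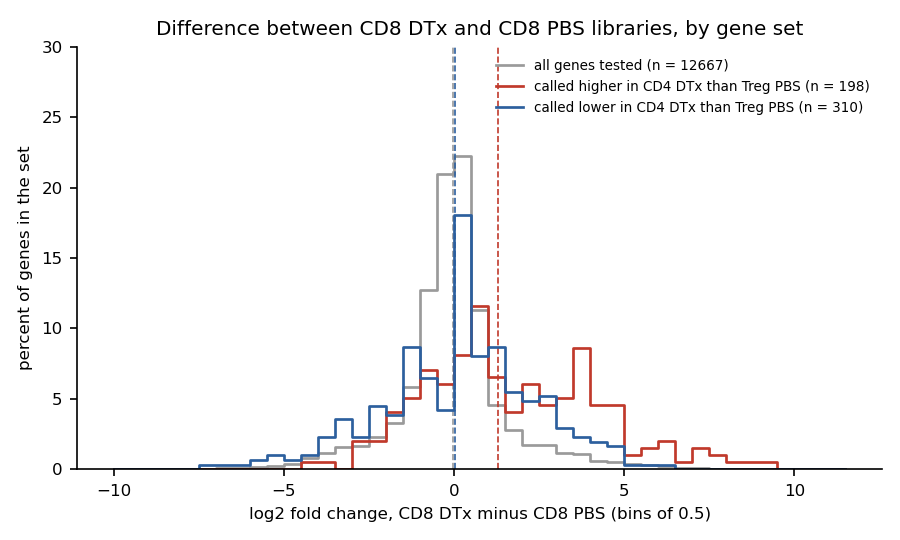
Distribution of the log2 fold change of CD8 DTx minus CD8 PBS (x axis, bins of 0.5) as a percent of genes (y axis) for all 12667 genes tested, the 198 called higher and the 310 called lower in CD4 DTx than Treg PBS; dashed lines are medians. The genes higher in CD4 DTx are shifted to the right, with a median of 1.28, while the lower genes centre on 0.02.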

How the data were processed

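RNA was sequenced from T cells sorted from B16-F10 tumors. Per the labels and methods, libraries were of the low-input SMART type, and the authors trimmed reads with Cutadapt, aligned them with hisat2 to NCBIM37 (mm9) and kept unique alignments. The read counter, strand setting and gene filter are not given in the sources used here, so overlapping and antisense genes are uncertain, as are near-identical copies. The deposited signal, named FPM by the authors, is a read count per gene divided by a factor per library. Columns do not share a total, and 100% of values were whole multiples of 1 step (tolerance 0.01 read), 1 read being worth 0.847 to 1.32 normalized reads in the 6 libraries. Per the methods an intergenic read normalization was also applied. The fit had been planned for FPM and its settings were kept.

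limma 3.58.1 (R 4.3.3) was applied to log2(value + 1), with a mean trend, 1 mean per group, all 13 libraries and Benjamini-Hochberg adjustment over 12667 genes. Calls needed an adjusted p under 0.05 and an absolute log2 fold change above 2. On this scale the change of low genes is understated. Bounds ("at least") divide a group mean by the highest floor of 3 reads among the other group's libraries. Floors cover counting error only, since no molecular identifiers are stated. Genes named are the 15 largest differences in each direction with groups that did not overlap and a mean of at least 100, the members of 28 gene lists, and label checks. Date-like symbols (21 rows) are not named. The members and lists were chosen with earlier results of these data known. The fit was tested on simulated data in which only genes with a mean of at least 100 were changed, by well over 4-fold. The simulation held no effect shared by replicates. It does not cover genes near the floor or changes near 4-fold. No replicate pair agreed within counting error (chi-square over its degrees of freedom, 43.5 to 206). Alternatives covered the pseudocount, filter, scaling, variance prior, edgeR 4.0.16 and DESeq2 1.42.0 on recovered reads, a replicate block, a sex term and left-out libraries. Start regions were read from RefSeq (GRCm38.p6), matched by symbol. Some listed genes are not reported here.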

Additional observations from a re-analysis of the deposited data

How the results depend on the processing

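No called gene changed sign in any setting. Of the 508 called genes 148 (74 higher, 74 lower) were called in all 21 other settings that kept the threshold, as were 23 of the 30 genes with the largest differences and 39 of the 83 listed genes called. The count of 508 was 323 with edgeR (168 higher, 155 lower, 313 shared) and 570 with DESeq2 (427 shared), 1002 with no fold threshold (426 higher, 576 lower) and 858 above 2-fold (351 higher, 507 lower). At these 2 looser thresholds 150 and 139 listed genes were called, the share of higher genes also higher in CD8 DTx was 15.5% and 18.8%, and without a fold threshold the share of lower genes also lower there was 4.17%. Leaving out 1 library gave 345 to 466 calls, 141 to 207 higher and 187 to 305 lower, the latter 199, 187 and 188 without Treg replicates 1, 2 and 3. Over these fits 28 to 29 of the 30 genes and 65 to 77 listed genes were called, and the shares in CD8 DTx were 22.6% to 29.9% and 5.90% to 12.1%. The last 2 settings were chosen after seeing the data: without replicate 3 of both groups, the males, 260 genes were called (119 lower, 12.6% of them lower in CD8 DTx), and without replicate 1 of both groups 329 (174 lower, 13.8%).

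The deviations of CD4 DTx and Treg libraries of the same number correlated at 0.252, 0.0366 and 0.215, and those of different numbers between -0.245 and 0.0659. Replicates 1 and 3 thus correlated best with their own number. Replicate 3 was male in every group, and the study states independent isolation days without tying numbers to days. The main fit did not pair the samples, and whether the numbers pair them is not settled. Replicate 2 of CD4 DTx correlated best with Treg replicate 3 (r = 0.0385). A replicate block in the 13-library fit gave 648 calls (508 shared), and in the 6-library fit 265 calls (113 higher, 152 lower, 246 shared). The latter ended the calls of 31 named or listed genes, among them Ifitm1, Itgb8, Tmem158, Klrk1, Klrd1, Klrc1, Klrc2, Gzmm, Tnfsf8, Tnfsf14, Lair1, Itgax, Itga3 and Sox4. Depth limits genes near the floor of 2.54 to 3.95 normalized reads, where a level of 0 does not show absence.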

Other observations

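The genes below were picked after their values were seen and are given as values. Sialyltransferases, enzymes that cap surface glycans with sialic acid, were higher in CD4 DTx than in Treg cells for 5 of 15 genes tested and lower for none (1.56% of all genes tested were higher), with a family median of 0.01. Of the others St8sia6, St3gal5 and St6galnac3 lay lower in every CD4 DTx library without being called, St8sia6 at 167, 126 and 167 normalized reads against 246, 1026 and 1398 (adjusted p = 0.0631). St6gal1 was at 5528, 8871 and 7459 normalized reads against 556, 1393 and 1874 (log2 fold change 2.66, SE 0.37, limma, adjusted p = 0.00112). St3gal6 was at 2667, 1727 and 1554 against 61.0, 82.3 and 113 (4.52, SE 0.30, adjusted p = 8.57e-06), and St8sia1 at 1736, 815 and 1190.5 against 10.2, 59.6 and 167 (4.62, SE 0.75, adjusted p = 0.00286). St6galnac1 and St6galnac2 were at 0 in all Treg libraries and at least 19.2-fold and 23.9-fold higher. CD4 PBS levels were high for St6gal1 and St8sia1, at 804 and 902 for St3gal6, and at most 9.25 for St6galnac1 and St6galnac2. Galnt9 and Galnt10, which start O-linked glycans, were higher too, by 3.26 (SE 0.45) and 2.17 (SE 0.23).

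Hdc, which makes histamine, was at 938, 1370.1 and 541 normalized reads against 21.2, 48.7 and 34.1 in Treg cells (4.71, SE 1.21, adjusted p = 0.0334), and the histamine receptor gene Hrh4 at 3715, 5135 and 3562 against 93.1, 129 and 178 (4.97, SE 0.91, adjusted p = 0.00599). The leukotriene receptor gene Cysltr1 was at 1713, 5817 and 2577 against 89.8, 283 and 106 (4.40, SE 0.97, adjusted p = 0.017). All 3 were at 53.3 normalized reads or less in both CD4 PBS libraries. The prostacyclin receptor gene Ptgir was higher by 2.95 (SE 0.78), and the other 8 leukotriene and prostanoid receptor genes tested were not called. The median of these 10 receptor genes was 0.07, and Cysltr2 lay lower in every CD4 DTx library. The histamine receptor gene Hrh2 overlapped between the groups.

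Transcripts of the gamma T cell receptor locus, which alpha beta T cells do not use in their receptor, were present in CD4 DTx. Tcrg-C2 was at 364, 397 and 423 normalized reads against 0, 20.6 and 7.06 in Treg cells (6.14, SE 0.99, adjusted p = 0.00274), and Trgv2 at 185, 191 and 180.4 against 0, 2.17 and 3.53 (at least 52.5-fold). The CD8 DTx means were 4024 and 1866. The gamma genes are similar in sequence, so the division of reads between them is uncertain, and their part of CD8 or gamma delta cells was not tested. Tcrg-C1 overlapped between the groups.

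Genes of the primary cilium, an organelle that T cells lack but whose transport proteins they use, were among those lower in CD4 DTx. Ift80 was at 679, 290.4 and 582 normalized reads against 2337, 3558 and 4314 in Treg cells (-2.76, SE 0.35, adjusted p = 0.000749), with CD4 PBS near Treg cells at 2833 and 3169. Of 23 intraflagellar transport and Bbs genes tested 3 were called lower, against 2.45% of all genes tested, and none higher, and 20 had a lower mean in CD4 DTx. Odc1, the first enzyme of polyamine synthesis, was at 8090, 5072 and 10112 against 41019, 38939 and 56866 (-2.59, SE 0.28, adjusted p = 0.000272), and Wls, which carries Wnt proteins to the surface, at 727, 1455 and 1005 against 9298, 5741 and 8054 (-2.89, SE 0.28, adjusted p = 0.000176). Among dissociation and immediate early genes Treg replicate 3 stood apart, with a summed level of 299690 normalized reads against 94264 to 137640 in the other 5 libraries, and Ier3 alone was called (2.39, SE 0.62), a call lost without CD4 DTx replicate 2 or 3 or Treg replicate 1 or 2 (adjusted p between 0.0899 and 0.139).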
